A study of Mus musculus with 4 samples.

Results

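The genes described here are 7 members of the Kruppel-like factor family in regulatory T cells (Treg), the Foxp3-expressing CD4 T cells that restrain immune responses: Klf2, Klf3, Klf4, Klf6, Klf7, Klf10 and Klf13. They are the rows of a gene count table and of a regularized log table whose mouse Ensembl identifiers map to these symbols, 7 of 38924 genes. The members are given by name and not by a cutoff on measured values, but they were chosen with earlier results of these data known. RNA was sequenced from resting and from activated Treg sorted from mouse spleen, 2 samples a group, each from its own animal. The series is about the transcription factor Foxo1 in Treg, by its title, and the comparison asks how the resting and the activated population differ. The sources used here do not give the strain, age, genotype or treatment of the mice, nor how Foxp3-positive cells were marked. The labels print the same gate on surface markers, CD44 low among them, for both populations.

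Kruppel-like factors are transcription factors that bind C-rich DNA through a block of zinc fingers at the C terminus. The part in front of the fingers differs between members and recruits either activating or repressing partners. In T cells Klf2 is known for keeping naive cells quiescent and circulating, and its gene is a target of Foxo1. Klf4, its close relative, restrains proliferation of T cells and is also a gene of monocytes and other myeloid cells. Klf3 is a repressor that works with CtBP proteins, Klf10 is induced by TGF-beta, and Klf13 is an activator of the chemokine gene Ccl5 in T cells. Klf6 and Klf7 are broadly expressed relatives of each other.

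The labelled cell type was read from its genes first. The count table names the group of its columns but not the replicate, so the libraries of each group carry the letters A and B. The letters were not treated as pairs, and values are given in that order, resting before activated. The libraries hold between 20282062 and 31851982 counts. Activated B had the fewest counts but the most genes with any count. Its 23398 genes stand against 19061 and 18928 in the resting libraries and 19610 in activated A, and the cause was not tested. Levels are in CPM, counts scaled to library size with trimmed mean of M values factors, and 1 CPM is worth 20.3 to 30.6 counts. Each animal was seen in 1 library, so the spread within a group is between animals and libraries together. Foxp3 was at 38.8 and 35.1 CPM in resting and 37.5 and 36.7 CPM in activated Treg. Cd44 was at 145 and 213 CPM in the resting libraries and 329 and 335 CPM in the activated ones. The levels of Cd44 do not overlap between the groups although the printed gate is one and the same. Markers of other cell types were not equal. Over 8 markers of plasmacytoid dendritic cells the summed level was 185 and 204 CPM in resting and 1099 and 410 CPM in activated Treg, and all 8 had a log2 fold change above 0. Over 8 markers of conventional dendritic cells it was 546 and 205 against 4111 and 1401 CPM, 7 of 7 tested above 0. Over 11 markers of macrophages and monocytes it was 543 and 100.1 against 827 and 223 CPM, with 6 of 11 above 0 and library A the higher in both groups. Neutrophil markers summed to at most 1.28 CPM in any library. The T cell genes Cd3e (1439 and 1708 against 1457 and 2140 CPM) and Cd4 (897 and 967 against 1095 and 1245 CPM) had means no lower in activated than in resting Treg. Cd3d overlapped between the groups (718 and 857 against 650 and 1011 CPM), and Il2ra, the surface marker of Treg, was lower without overlap (1030 and 1088 against 921 and 719 CPM, edgeR adjusted p = 0.739). In bulk libraries, fewer cells of a type and less RNA per cell cannot be told apart.

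Klf2, Klf7 and Klf13 were lower in activated than in resting Treg by 2.62, 2.33 and 1.73 times in mean CPM. Klf3 and Klf6 were lower by 1.58 and 1.38 times with a spread that leaves the difference unsettled, Klf10 was level, and Klf4 was close to the detection limit. No single gene in the whole table passed the test that was set as the main one. A second tool on the same counts called 3 members, Klf2, Klf7 and Klf13, and the same 3 had an unadjusted p under 0.05 by the main one.

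The RefSeq table of promoters used here holds 6 of the 7 members. The 250 bases before the annotated start are shown for Klf2, Klf7 and Klf13, because DESeq2 called these 3 members lower. The start is that of RefSeq, and for Klf7 it lies inside the gene as GENCODE draws it, as does the very end of the Klf2 window. In the lines below capitals mark each match to CCNCNCCC, a C-rich box of the kind Klf and Sp proteins bind, and to a form of the site of MEF2 factors, CTA and TAG with any 4 bases between them, on either strand.

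Klf2 promoter, chr8:72318812-72319061 (GRCm38.p6, plus strand): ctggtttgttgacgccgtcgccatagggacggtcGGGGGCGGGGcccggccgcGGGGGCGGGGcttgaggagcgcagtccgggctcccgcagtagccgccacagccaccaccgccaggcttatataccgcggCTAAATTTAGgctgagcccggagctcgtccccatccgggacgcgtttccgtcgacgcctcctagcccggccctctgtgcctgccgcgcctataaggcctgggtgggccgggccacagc

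Klf7 promoter, chr1:64121390-64121639 (GRCm38.p6, minus strand): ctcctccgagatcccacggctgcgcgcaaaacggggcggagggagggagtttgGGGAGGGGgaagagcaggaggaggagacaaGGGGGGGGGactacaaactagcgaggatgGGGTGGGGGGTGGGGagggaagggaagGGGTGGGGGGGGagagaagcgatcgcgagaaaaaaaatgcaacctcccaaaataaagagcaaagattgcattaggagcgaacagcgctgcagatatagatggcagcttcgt

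Klf13 promoter, chr7:63938916-63939165 (GRCm38.p6, minus strand): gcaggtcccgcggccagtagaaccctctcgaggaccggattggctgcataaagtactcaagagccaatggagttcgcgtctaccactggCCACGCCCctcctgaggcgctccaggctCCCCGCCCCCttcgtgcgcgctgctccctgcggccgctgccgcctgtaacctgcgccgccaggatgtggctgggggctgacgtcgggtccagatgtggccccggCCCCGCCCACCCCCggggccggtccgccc

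Within these windows the C-rich box CCNCNCCC occurred 4 times for Klf2, 8 times for Klf7 and 5 times for Klf13, counting both strands and overlapping matches. It is a common motif: 45.9% of the 32851 promoters in the table hold it within the same 250 bases. The GC box GGGCGG, whose matches lie partly inside those of the C-rich box, occurred 2 times for Klf2, 1 time for Klf7 and 3 times for Klf13, and 32.7% of promoters hold one. Klf2 alone among the 6 members had a match to the MEF2 form, which reads CTAAATTTAG and runs from 118 to 109 bases before the start. Such a match stands in 3.20% of promoters. No member had TGTTTAC, a forkhead core present in 3.17% of promoters, or TATAAA, present in 12.4%, in the window. These matches describe letters in a window, and binding was not measured. The GC content was 71.2% for Klf2, 59.2% for Klf7 and 71.6% for Klf13.

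Klf2, the factor of naive T cell quiescence and circulation, lies on the plus strand of chromosome 8 between 72319033 and 72321656 (mm10, GENCODE M21, as for the other positions). It was at 50.5 and 63.0 CPM in the resting libraries and at 21.1 and 22.2 CPM in the activated ones. Both activated libraries sat below both resting ones, and they were nearly equal to each other. The means were 56.8 ± 8.86 CPM (SD, n = 2) and 21.7 ± 0.782 CPM. The log2 fold change, activated over resting, was -1.39 ± 0.21 (SE) by edgeR's quasi-likelihood test, with an unadjusted p of 0.00106 and an adjusted p of 0.267 over 14235 genes tested. DESeq2 on the same counts called Klf2 lower (log2 fold change -1.40 ± 0.29, adjusted p = 0.0002). With each library left out, the edgeR log2 fold change of Klf2 ran from -1.55 without resting A to -1.23 without resting B. Klf2 is also a gene of endothelium. Of the endothelial markers Cdh5 stayed at or below 0.326 CPM in resting and was at 7.20 and 3.60 CPM in activated Treg, and Kdr stayed at or below 0.0653 CPM against 5.76 and 2.32 CPM. The sum of the endothelial and stromal list was 395 and 363 against 238 and 209 CPM, of which Pecam1 made up 394.7 and 361.4 against 224.1 and 200.7 CPM. The part of such cells in the Klf2 difference was not tested.

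Klf7, on the minus strand of chromosome 1 between 64029447 and 64122282, was at 71.6 and 47.3 CPM in resting and 32.3 and 18.7 CPM in activated Treg. The groups did not overlap, but within each group the libraries differed more than they did for Klf2. Its log2 fold change was -1.22 ± 0.36 (edgeR, unadjusted p = 0.0187, adjusted p = 0.406), and DESeq2 called it lower (adjusted p = 0.0431). The value was -0.88 without activated B and -1.65 without activated A. A noncoding gene on the other strand, Gm26649, shares 3196 bases with Klf7 exons and was listed at 0 counts in all 4 libraries, and the sources used here do not say whether counting used strand.

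Klf13, an activator of Ccl5, lies on the minus strand of chromosome 7 between 63886351 and 63938915. It was the most abundant member, at 1103 and 941 CPM against 616 and 563 CPM. Both activated libraries were lower than both resting ones, and the gap between groups was wider than that inside either. The means were 1022 ± 114 and 590 ± 38 CPM (SD, n = 2). Its log2 fold change was -0.79 ± 0.17 (edgeR, unadjusted p = 0.00581, adjusted p = 0.323), called lower by DESeq2 (adjusted p = 0.0323). Without resting A the value was -0.68 and the unadjusted edgeR p rose to 0.0791 (adjusted p = 0.775).

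Klf3, the CtBP-dependent repressor, lies on the plus strand of chromosome 5 between 64803388 and 64832901. It was at 93.8 and 66.8 CPM in the resting libraries and at 64.0 and 37.6 CPM in the activated ones. Resting B and activated A, at the inner edge of their groups, were almost level. Library A was the higher one in both groups, as it was for Klf6, Klf7 and Klf13 and for the macrophage and monocyte markers, and the part of those cells in it was not tested. The log2 fold change of -0.66 ± 0.33 did not pass by edgeR (unadjusted p = 0.0989, adjusted p = 0.714) or by DESeq2 (adjusted p = 0.573), and it ran from -1.08 without activated A to -0.33 without activated B. Klf6, on the plus strand of chromosome 13 between 5861482 and 5870394, showed the same layout at a higher level. It was at 322 and 251 CPM in resting and 241 and 173 CPM in activated libraries. Its log2 fold change was -0.47 ± 0.24 (edgeR, unadjusted p = 0.113, adjusted p = 0.740), between -0.71 without activated A and -0.25 without activated B.

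Klf10, the TGF-beta induced member, lies on the minus strand of chromosome 15 between 38291463 and 38300706. It was at 83.1 and 114 CPM in resting and at 103 and 110.0 CPM in activated libraries. Both activated libraries lay between the resting ones. The log2 fold change was 0.11 ± 0.21 (edgeR adjusted p = 0.992), and it turned to -0.10 without resting A and was 0.35 without resting B. Klf4, on the minus strand of chromosome 4 between 55527143 and 55532466, had 6 and 6 counts in resting libraries, 21 in activated A and none (0) in the other activated library. It did not pass the filter on low counts, so edgeR did not test it. In CPM these are 0.292, 0.196, 0.687 and 0, where 0 counts in activated B allow up to 0.148 CPM by counting error alone. Activated A, the library with the most Klf4, also had the highest summed level of the dendritic cell and of the macrophage and monocyte markers, and their part in the Klf4 counts was not tested.

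**Figure D1:**
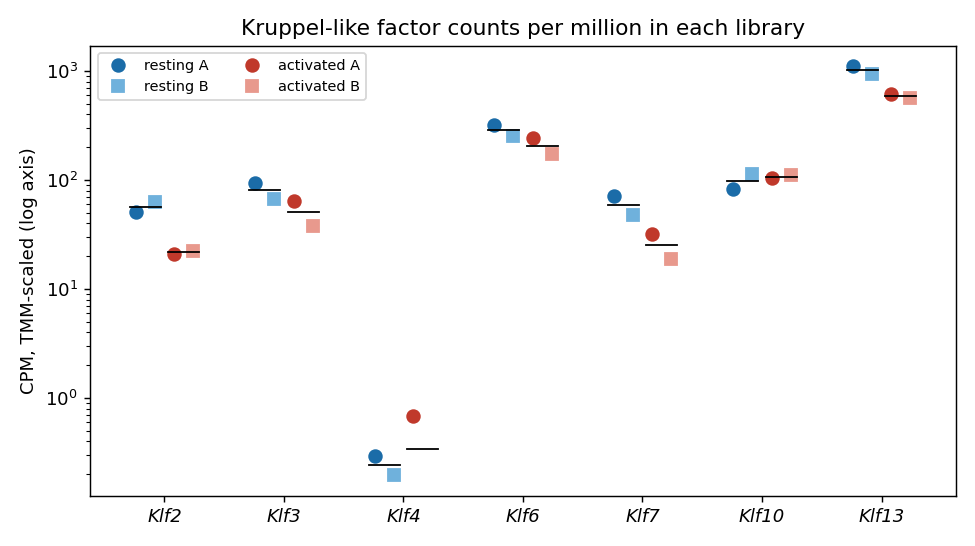
Levels in CPM of the 7 members in each library on a log axis, with circles for A, squares for B and a black line at each group mean over 2 libraries; Klf4 in activated B is 0 and cannot be drawn on this axis, and the lines of that group include it. Klf2, Klf3, Klf6, Klf7 and Klf13 have both activated libraries below both resting ones, while Klf10 overlaps.

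Of the 6 members tested, edgeR called 0 lower and 0 higher over all genes, as it did for every other gene: the share called lower was 0% and the share called higher 0%, with a smallest adjusted p of 0.2665. At an unadjusted p under 0.05 it counted 3 of the 6 members lower and 0 higher, against 2.61% of all tested genes lower and 6.30% higher. DESeq2 called 3 members lower and 0 higher over the 15382 genes to which it gave an adjusted p, against 0.689% lower and 2.02% higher. With no filter on low counts edgeR called the same 3 lower, where it called 177 lower and 675 higher of 26327 genes. The groups did not overlap for 5 of the 6, all with activated Treg the lower, a layout found in 17.4% of tested genes, and for 0 with activated Treg the higher, found in 19.8%. The median log2 fold change of the 6 was -0.73, and that of all genes tested was -0.0072. The 6 passed the filter through their level and stand for 6 of 7 members, Klf4 being the other. With 2 samples against 2, an exact permutation test cannot give a p below 0.333, so none was run on single genes.

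The deposited regularized log2 values, in which low counts are shrunk, carry replicate numbers and show the same members. Klf2 was at 10.24 and 10.54 in resting replicates 1 and 2 and at 9.09 and 9.17 in activated ones. Klf13 was at 14.70 and 14.50 against 13.91 and 13.80, and Klf7 at 10.71 and 10.17 against 9.66 and 8.96. In limma on these values 3 members were lower and 0 higher at an unadjusted p under 0.05, where 2.56% of tested genes were lower and 6.98% higher, and 0 passed after adjustment. The 3 were again Klf2, Klf7 and Klf13, with unadjusted limma p of 0.00177, 0.0209 and 0.0118 and adjusted p of 0.218 or more. This table comes from the same libraries and is no independent measurement.

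**Figure D2:**
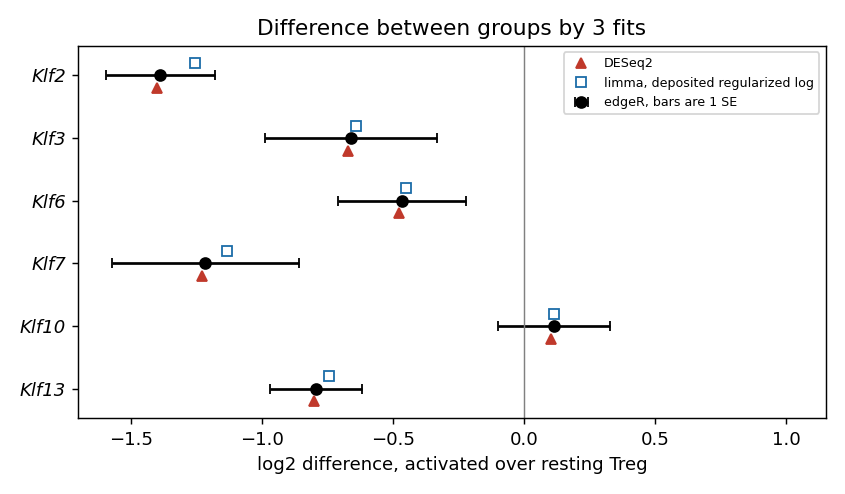
Log2 difference, activated over resting Treg, of the 6 members that passed the filter, by edgeR with bars of 1 SE, by DESeq2 and by limma on the deposited regularized log values, each over 2 libraries a group. The 3 estimates of a member differ by less than the SE from edgeR, with Klf2 farthest from 0 and Klf10 at 0.11.

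The members did not vary together inside the groups. On the regularized log2 scale replicate 2 was lower than replicate 1 in both groups for Klf3, by differences of -0.44 in resting and -0.69 in activated Treg. The same direction held for Klf6 (-0.33 and -0.43), for Klf7 (-0.54 and -0.70) and for Klf13 (-0.21 and -0.11). For Klf2 and Klf10 replicate 2 was the higher one in both groups, by 0.30 and 0.08 for Klf2 and by 0.43 and 0.09 for Klf10. The difference between group means was 4 or more times either of these for Klf2, whereas for Klf3 and Klf6 it was about as large as the difference between replicates. Replicates of the groups are separate animals, so a shared number was not treated as a pairing. Whether more than the number links such samples was not tested.

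**Figure D3:**
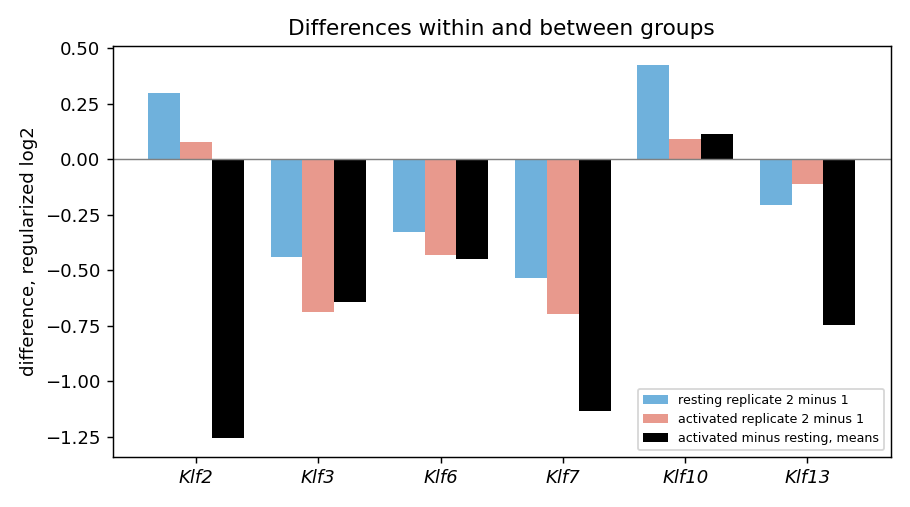
Differences on the deposited regularized log2 scale for the 6 members that passed the filter: replicate 2 minus replicate 1 within resting and within activated Treg, and activated minus resting group means (n = 2 each). For Klf2 the black bar (-1.25) exceeds both replicate bars, and for Klf6 the 3 bars are alike in size (-0.33, -0.43 and -0.45).

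Levels of different genes were compared per kilobase of exon (RPKM, CPM over the summed length of a gene's exons in GENCODE M21). In resting Treg the order was Klf13 at 136 ± 15.1, Klf6 at 65.2 ± 11.4, Klf2 at 30.7 ± 4.80, Klf10 at 23.6 ± 5.22, Klf7 at 7.31 ± 2.11, Klf3 at 7.14 ± 1.69 and Klf4 at 0.0799 ± 0.0222 RPKM (SD, n = 2). In activated Treg it was Klf13 at 78.3 ± 5.04, Klf6 at 47.2 ± 10.9, Klf10 at 25.5 ± 1.12, Klf2 at 11.7 ± 0.423, Klf3 at 4.51 ± 1.66, Klf7 at 3.14 ± 1.18 and Klf4 at 0.113 ± 0.159 RPKM. Klf3 and Klf7 overlapped in both groups at this length. With the longest transcript they did not overlap, Klf3 being at 17.96 and 12.80 against 9.34 and 6.17 RPKM for Klf7 in resting and at 12.25 and 7.19 against 4.21 and 2.44 RPKM in activated Treg, so their order rests on the length used. In resting Treg the lower Klf2 library (27.35 RPKM) lay just above the higher Klf10 library (27.28 RPKM), so their ranges nearly touched without overlap. In activated Treg Klf10 was above Klf2 in both libraries. With the longest transcript as the length, the mean of Klf10 comes to 32.4 RPKM in resting Treg and passes that of Klf2. The ranges then overlap, at 27.31 and 37.45 RPKM for Klf10 against 27.35 and 34.13 RPKM for Klf2. The resting order of those 2 therefore rests on the length used.

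The ratio between members does not depend on the scaling of a library, and its change between groups does not depend on gene length. These pairs were chosen after the values were seen. Klf2 over Klf10 was 1.37 and 1.25 in resting and 0.462 and 0.457 in activated libraries, a ratio 2.86 times lower in activated Treg. Klf7 over Klf3 was 1.06 and 0.979 against 0.698 and 0.689, lower by 1.47 times. Klf13 over Klf6, the 2 most abundant members, was 2 and 2.19 against 1.49 and 1.89, where the spread inside the activated group (1.49 to 1.89) is larger than the gap to resting A.

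The whole family of 17 Klf genes summed to 292 and 266 RPKM in resting and 192 and 169 RPKM in activated Treg. Klf13 held 50.1% and 47.1% of that sum in the resting libraries and 42.7% and 44.3% in the activated ones. Klf6 held 25.1% and 21.5% against 28.6% and 23.4%, which overlap. Klf2 went from 9.36% and 12.9% to 5.96% and 7.12%, and Klf10 from 6.80% and 10.3% to 12.9% and 15.6%. Between the groups the shares of Klf2, Klf13 and Klf7 (3.01% and 2.19% against 2.07% and 1.36%) were lower without overlap. The share of Klf10 was higher without overlap, although its level overlapped. Of the other Klf genes tested, Klf9, Klf11, Klf12 and Klf16 also had higher shares without overlap. Shares depend on the family sum, which was lower in activated Treg.

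**Figure D4:**
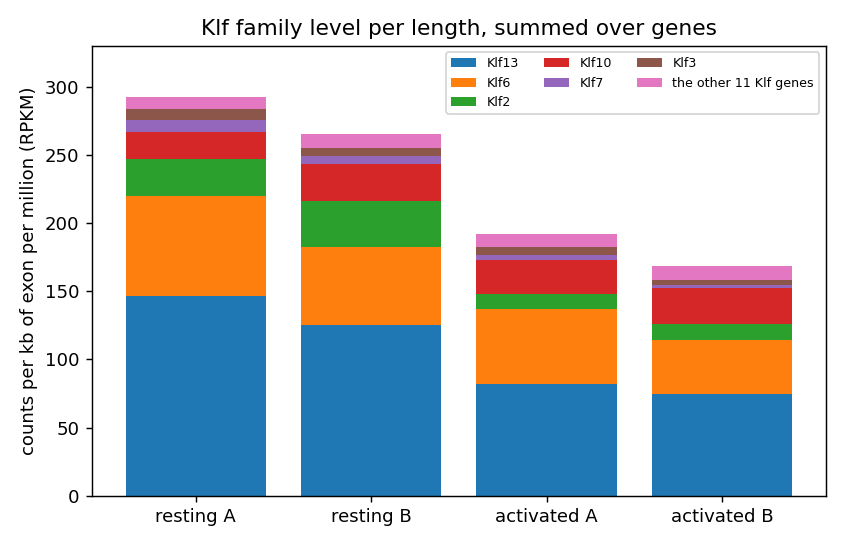
Level per length (RPKM, CPM per kilobase of exon) of the Klf genes stacked for each library, the other 11 genes in one block. The stacks reach 292 and 266 in resting and 192 and 169 in activated Treg, and the Klf13 block makes up most of the gap.

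The other 10 Klf genes were low. Only 5 of them passed the filter, and edgeR and DESeq2 called 0 of these, with 0 at an unadjusted p under 0.05. Their median log2 fold change was 0.19, and it was -0.20 without resting A, 0.0072 without activated B and 0.36 without activated A. Klf16 was at 15.6 and 16.8 CPM in resting and 13.0 and 16.1 CPM in activated Treg. Klf9, a small repressor of the Klf13 branch, was at 3.99 and 5.16 against 8.18 and 6.17 CPM, the 1 gene among the 5 without overlap, activated Treg being the higher (log2 fold change 0.64 ± 0.36, edgeR adjusted p = 0.768). Klf11, the closest relative of Klf10, was at 5.35 and 10.2 against 7.85 and 9.97 CPM. Klf8 stayed at or below 1.70 CPM and Klf12 at or below 0.839 CPM. Klf1, the factor of red cell precursors, had 0, 2, 8 and 4 counts, Klf5 0, 3, 0 and 2, and Klf15 2, 0, 4 and 12. Klf17 had 20 counts in activated B, the library with the most genes detected, and 0 in the other libraries, and Klf14 had 0 in all 4. The related Sp factors bind similar C-rich boxes. Of 9, the 4 that passed the filter were all below 0, where 50.9% of all tested genes were, and their median log2 fold change was -0.25. Either tool called 0 of these 4, with 0 at an unadjusted p under 0.05. That median moved with single libraries, to -0.028 without resting A, -0.12 without activated B, -0.47 without resting B and -0.49 without activated A. Sp1, at 106 and 93.9 against 87.1 and 72.4 CPM, was the 1 Sp gene tested without overlap. Sp2 (59.9 and 61.2 against 49.4 and 65.4 CPM), Sp3 (144 and 97.1 against 119 and 83.1 CPM) and Sp4 (80.7 and 48.2 against 66.2 and 42.1 CPM) overlapped between groups. Sp5, Sp8 and Sp9 had 0 counts in all libraries, and Sp6 and Sp7 had at most 2 counts in any.

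Partners that carry out repression or activation for Klf proteins were measured in full. All 14 passed the filter, and 10 lay below 0 (median log2 fold change -0.14), where 50.9% of all tested genes did. Of the 14, 0 were called by edgeR or DESeq2 or had an unadjusted p under 0.05. Scaling to library totals gave a median of -0.079, leaving out activated A -0.30 and leaving out resting B -0.25. Crebbp, an acetyltransferase, was at 147 ± 21.5 and 107 ± 9.10 CPM (SD, n = 2), Kat2b, another acetyltransferase, at 43.1 ± 12.1 and 25.9 ± 11.7, and Hdac2, a deacetylase, at 17.7 ± 0.436 and 13.2 ± 2.73 CPM. Hdac1, at 304 ± 57.8 and 249 ± 35.6 CPM, and Sin3a, the scaffold that Klf10 and Klf13 bind, at 147 ± 8.02 and 129 ± 21.1 CPM, overlapped between the groups.

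Genes that act on Klf2 and Klf4 included the Foxo factors, the MEF2 factors with their kinase route, and ubiquitin ligases. All 17 passed the filter, and 11 lay below 0 (median log2 fold change -0.30, or -0.13 without resting A), where 50.9% of all tested genes did. At an unadjusted p under 0.05 edgeR counted 2 lower and 1 higher, against 2.61% of all tested genes lower and 6.3% higher. After adjustment 0 passed. DESeq2 called 0 lower and 1 higher, against 0.689% lower and 2.02% higher over all genes. Foxo1, which drives Klf2, was at 260 and 227 CPM in resting and 162 and 127 CPM in activated Treg (log2 fold change -0.75 ± 0.20, edgeR adjusted p = 0.372). Foxo3 was at 59.1 and 50.8 against 41.6 and 38.8 CPM (-0.45 ± 0.19). Smurf2, a ubiquitin ligase, was at 38.1 ± 1.23 and 27.1 ± 0.217 CPM (SD, n = 2). Pik3cd, the lipid kinase subunit upstream of Foxo1 inactivation, was at 421 ± 20.2 and 325 ± 9.23 CPM. Mef2c was the gene that DESeq2 called higher (adjusted p = 4.48e-06), at 2.04 and 1.502 CPM in resting and 39.8 and 7.80 CPM in activated Treg. Mef2c is also a gene of dendritic cells and B cells. Its highest library, activated A, had the highest dendritic cell markers as well, and their part in it was not tested. Mef2a and Mef2d are named beside the Klf2 promoter match, a choice made after their values were seen. Mef2a was at 50.3 and 35.0 against 31.8 and 16.6 CPM and Mef2d at 73.6 and 63.0 against 57.0 and 50.4 CPM, with edgeR adjusted p of 0.681 and 0.755.

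The trafficking genes linked to Klf2 went both ways. Of 10 tested, edgeR counted 3 lower and 2 higher at an unadjusted p under 0.05, against 2.61% of all tested genes lower and 6.3% higher. After adjustment it called 0. DESeq2 called 3 lower and 2 higher, against 0.689% lower and 2.02% higher over all genes. The median over the 10 was -0.21 on the log2 scale, -0.34 without resting B and -0.40 without activated B. S1pr1, the exit receptor of lymphoid organs and a direct Klf2 target, was at 876 and 882 CPM in resting and 343 and 333 CPM in activated Treg (log2 fold change -1.38 ± 0.16, DESeq2 adjusted p = 2.41e-07). Ccr7, a chemokine receptor for lymph node entry, was at 778 and 624 against 286 and 200 CPM (-1.53 ± 0.25). Itgb7, an integrin subunit of gut homing, overlapped between groups at 515 and 715 against 435 and 685 CPM. Cxcr3, an inflammatory chemokine receptor and one of the higher genes, was at 30.9 and 104 against 249 and 280 CPM (DESeq2 adjusted p = 0.00282), and it is named after its values were seen, outside the rule for naming genes. Inflammatory chemokine receptors are among the genes linked to Klf2, and the part of Klf2 in the level of Cxcr3 was not tested. Cxcr3 is a gene of NK cells and CD8 T cells as well, and the markers of CD8 T and NK cells summed to 62.7 and 139 against 204 and 225 CPM. Their part in the level of Cxcr3 was not tested.

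**Figure D5:**
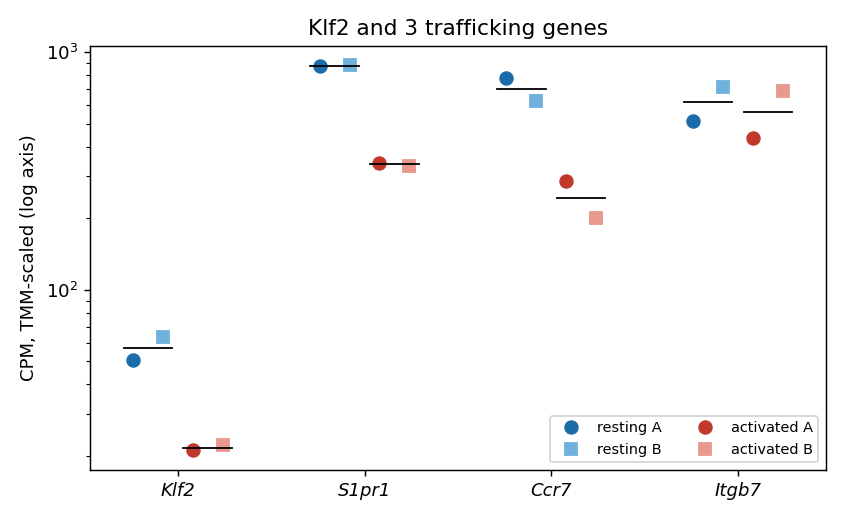
Levels in CPM of Klf2 and of S1pr1, Ccr7 and Itgb7 in each library on a log axis, with circles for A, squares for B and a black line at the mean of the 2 libraries of a group. Klf2, S1pr1 and Ccr7 have both activated libraries below both resting ones, and Itgb7 overlaps.

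Of the TGF-beta genes listed around Klf10, 12 of 14 tested lay below 0, where 50.9% of all tested genes did, with a median log2 fold change of -0.33. Leaving out activated A gave a median of -0.57, leaving out activated B -0.20 and leaving out resting A -0.14. At an unadjusted p under 0.05 edgeR counted 4 lower and 0 higher, against 2.61% of all tested genes lower and 6.3% higher, and 0 after adjustment. Against 0.689% of all genes called lower, DESeq2 called 1 lower here, Tgfbr3 (adjusted p = 0.0256). This coreceptor was at 46.4 and 30.7 CPM in resting and 19.0 and 10.5 CPM in activated Treg. The other three were Ski, a corepressor of Smad proteins, at 73.3 and 71.3 against 46.5 and 43.8 CPM, Smad7, the inhibitory Smad, at 27.5 and 21.6 against 15.4 and 13.0 CPM, and Nedd4l, a ubiquitin ligase, at 15.3 and 11.5 against 8.44 and 6.42 CPM. Skil, at 241 ± 37.2 and 185 ± 30.3 CPM (SD, n = 2), and Itch, at 156 ± 32.6 and 137 ± 48.8 CPM, the ligase that modifies Klf10, did not pass.

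Of 14 genes of quiescence and the cell cycle linked to Klf2, Klf4 and Klf10, 10 lay below 0 (median log2 fold change -0.25, or -0.40 without activated A and -0.15 without activated B). Over all tested genes 50.9% lay below 0. At an unadjusted p under 0.05 edgeR counted 4 lower and 1 higher, against 2.61% of all tested genes lower and 6.3% higher, and 0 after adjustment. Against 0.689% of all genes called lower, DESeq2 called 1 lower in this list. That gene was Cdkn2d, a CDK inhibitor, at 162 and 199 against 85.9 and 107 CPM (DESeq2 adjusted p = 0.0349). Tob1, an antiproliferative gene, was at 19.2 and 17.6 against 11.5 and 8.29 CPM, and Ccnd2, a D cyclin, at 1078 and 1058 against 785 and 713 CPM. The fourth lower gene, named to complete the count, was Myc at 249 and 290 against 184 and 194 CPM. Rbl2, a retinoblastoma relative, was the higher one at 120 and 137 against 194 and 199 CPM. Tsc22d3 was at 1340 and 634 against 575 and 274 CPM, with library A about 2 times library B in each group (log2 fold change -1.22 ± 0.50).

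Of 8 further genes linked to single members, 7 were tested and 6 lay above 0 (median log2 fold change 1.22, or 0.77 without activated B). Over all tested genes 50.9% lay below 0. At an unadjusted p under 0.05 edgeR counted 4 higher and 0 lower, against 6.3% of all tested genes higher and 2.61% lower, and 0 after adjustment. DESeq2 called 2 higher and 0 lower, against 2.02% higher and 0.689% lower over all genes. Ccl5, the chemokine gene that Klf13 activates, was at 8.56 and 20.5 CPM in resting and 145 and 205 CPM in activated Treg (log2 fold change 3.58 ± 0.49, DESeq2 adjusted p = 3.38e-14), opposite in direction to Klf13. Ccl5 is also made by CD8 T and NK cells, whose markers were higher in activated libraries as given above, and their part was not tested. Il4, a cytokine of helper T cells, was at 0.486 and 0.816 against 3.27 and 7.16 CPM (DESeq2 adjusted p = 0.00412). Prdm1, a factor of effector Treg, was at 15.02 and 21.1 against 30.9 and 53.8 CPM and missed the DESeq2 threshold (adjusted p = 0.0569). Thbd, a Klf2 target of endothelium and the fourth higher gene, was low, at 0.0972 and 0 against 0.589 and 0.888 CPM. Its log2 fold change was 2.73 ± 0.90 (edgeR adjusted p = 0.469), opposite in direction to Klf2, with at most 18 counts in any library. Txnip, an inhibitor of thioredoxin, was at 619 and 490 against 478 and 359 CPM.

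The genes whose pattern over the 4 libraries was nearest to each of the 3 lower members were found by the distance between log2 CPM values centred on each gene's mean, among 7049 well-expressed protein-coding genes. Nearest to Klf2 were Chchd10 (distance 0.176), S1pr1 (0.235) and Itih5 (0.280), where the median gene lay at 1.39. Nearest to Klf7 were Bach2 (0.0864), Rab3ip (0.140) and Dnah8 (0.140), with a median gene at 1.41. Bach2 was at 84.3 and 56.2 CPM in resting and 35.6 and 21.2 CPM in activated Treg. Nearest to Klf13 were Vps37b (0.0339), Ppp2r5a (0.0343) and Rgcc (0.0396), with a median gene at 0.835. With 4 points per gene many profiles lie close, and the distances are a description.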

How the data were processed

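RNA sequencing libraries from 2 resting and 2 activated Treg samples were made with a template-switching kit for low input, per the labels' protocols. Such libraries are amplified and carry no molecular identifiers, so limits from counts cover counting error only. The authors deposited raw counts per Ensembl gene, from featureCounts per the file name, and DESeq2 regularized log2 values. The submitters' processing notes also list STAR 2.4.0c and the mm10 build, and the sources used here do not give the annotation release, strand setting or filters. The count table heads both columns of a group with the same replicate number, so columns were assigned to groups only. Symbols, positions and lengths came from GENCODE M21 (37607 of 38924 identifiers matched).

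Genes were kept by filterByExpr (minimum count 10, minimum total count 15) and tested on group alone with edgeR 4.0.16 in R 4.3.3 (quasi-likelihood F-test, TMM, prior count 2, Benjamini-Hochberg over 14235 genes, threshold 0.05). The SE was taken from the fold change and the F statistic. DESeq2 1.42.0 and limma 3.58.1 were run beside it. The other settings tried were other scalings, filters and prior counts, each library left out, and a replicate block. From each list outside the Klf and Sp families, the 4 genes with the smallest unadjusted edgeR p and the 2 of highest mean CPM are named, beside S1pr1, Ccr7 and Itgb7 for Klf2. Genes counted in the lists but withheld are not reported here. The nearest profiles are the 3 closest for each member with an unadjusted p under 0.05. Members, lists and tests were chosen with earlier results of these data known.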

Additional observations from a re-analysis of the deposited data

How the results depend on the processing

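The count of members lower at an adjusted p under 0.05 was 0 by edgeR, limma-voom, both other scalings and the CPM filter. It was 3 by DESeq2 and 3 by edgeR with no filter on low counts. Over all genes DESeq2 called 106 lower and 311 higher, and edgeR with no filter called 177 lower and 675 higher of 26327. The count of members at an unadjusted p (3) became 5 with no filter, where 552 of 26327 genes were lower and 1652 higher. By DESeq2 and with no filter, in this order, Klf2 was at -1.40 and -1.42, Klf7 at -1.23 and -1.24, and Klf13 at -0.80 and -0.82, all past the threshold. The log2 fold change of Klf2 with each library left out ran from -1.55 to -1.23. Klf10 turned to -0.10 without resting A and ran up to 0.35 without resting B, and on the regularized log scale it ran from -0.10 without resting replicate 1 to 0.33 without resting replicate 2. The other 5 members tested kept their sign under the 12 other settings. The median of the members ran from -0.97 without activated A to -0.53 without activated B. On the regularized log scale the 3 members lower at an unadjusted p became 1 without resting replicate 1 or activated replicate 2, and 4 without activated replicate 1.

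Over the genes of the family and partner lists, edgeR called 0 lower and 0 higher, DESeq2 5 and 5, and edgeR with no filter 7 and 7. With each library left out these counts ran from 0 to 3 lower and from 0 to 3 higher, and the 13 genes lower at an unadjusted p ran from 5 without resting A to 16 without activated A. Over all genes DESeq2 called 106 lower and 311 higher, and edgeR with no filter 177 and 675 of 26327. The main edgeR fit counted 371 of 14235 genes lower at an unadjusted p under 0.05. Calls over all genes also changed with the library left out, so the list counts alone do not set the lists apart from other genes. Levels per length of Klf3, Klf10 and Klf13 moved with the longest transcript, to 15.4, 32.4 and 160 RPKM in resting Treg.

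With the replicate number as a block, limma on the regularized log values called 2 members lower (Klf2 at -1.25 and Klf7 at -1.13), 5 at an unadjusted p, and in the lists 6 lower and 6 higher, with 21 lower at an unadjusted p. Over all genes it called 190 lower and 629 higher, and at an unadjusted p under 0.05 it counted 984 lower and 1857 higher of 14235. Deviations of the replicates numbered 1 correlated across genes (r = 0.652). The labels describe independent animals, so the main fits did not use the number as a pairing. Whether samples with the same number share more than that number was not tested. The headings of the count columns carry no usable number, so no such fit was made on counts. By value, the libraries of each group stand in the same order for every member when A is read as replicate 1 and B as replicate 2.

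Causes of these shifts were not tested. With 2 libraries a group, leaving 1 out assumes that the lone library varies like the other group.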
